A study of Mus musculus with 2 samples.

Results

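A set of 9 of the 27998 genes in the count tables was followed in the CD8 T cells and *Foxp3*+ regulatory CD4 T cells (Tregs) of pancreatic islets from NOD mice: *Bcl6*, *Maf*, *Cxcr5*, *Cd200*, *Cd83*, *Slamf6*, *Sh2d1a*, *Nrn1* and *Tbc1d4*. They are genes of follicular-type T cells and of T cells that have recently met antigen, and each was found under its symbol in both tables. The members were selected on earlier expression values of both cell classes and both libraries, so every level, co-expression value and genotype ratio below is a description, and no test was made.

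The cells came from 2 strains, NOD.Foxp3-EGFP mice (wild type) and NOD.Tnfrsf9-/-.Foxp3-EGFP mice (knockout), in which *Tnfrsf9*, the gene of the costimulatory receptor CD137, was disrupted in all cells and not only in Tregs. Both strains carry a green fluorescent reporter of *Foxp3* on the diabetes-prone NOD background. Islets of 6 females aged 9 to 10 weeks were pooled per strain, CD45.1+ cells were sorted as CD8+ T cells or as CD4+ GFP+ Tregs, with CD11b+ cells among those gated out, and both kinds went into 1 droplet library (Chromium 3′ version 2) per strain. With 1 pooled library per genotype there is no replicate: every interval below is a 95% exact interval for counting error only, and a genotype difference cannot be told apart from a difference between 2 libraries. A cell entered the CD8 class with 2 or more *Cd8a* and *Cd8b1* UMIs (unique molecular identifiers, 1 per captured transcript) and no *Cd4* or *Foxp3* UMI, and the Treg class with no *Cd8a* or *Cd8b1* UMI and at least 1 UMI of *Cd4*, *Foxp3*, *Il2ra* or *Ikzf2*. This gave 891 wild-type and 1200 knockout CD8 T cells with 7014920 and 7908290 UMIs, and 1552 and 1444 Tregs with 8888924 and 8152788 UMIs.

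Follicular helper T cells are the CD4 T cells that enter B cell follicles and help B cells. Their program is set by the transcriptional repressor BCL6 and helped by the transcription factor c-MAF, it brings the chemokine receptor CXCR5 to the surface, and it relies on SLAM family receptors such as SLAMF6 (Ly108) and on the adaptor SAP, encoded by *Sh2d1a*, that binds their tails. Several genes of this program are also induced by antigen receptor signals in other T cells, among them *Cd200*, whose product engages an inhibitory receptor on myeloid cells, *Cd83*, a surface protein of activated lymphocytes and dendritic cells, and *Nrn1*, which encodes neuritin and is known from follicular and anergic T cells. *Tbc1d4* encodes a Rab GTPase activating protein best known from insulin-stimulated glucose transport. *Xcl1* encodes lymphotactin, a chemokine that activated CD8 T cells secrete and that attracts XCR1+ dendritic cells.

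Promoter sequences are shown for *Xcl1* and for the available members whose transcripts were higher together with *Xcl1* in CD8 T cells of both libraries below. For *Bcl6*, the gene of the regulator that sets the program, 1 of 2 listed starts is shown, the one with the BCL6 letters. The RefSeq table of GRCm38.p6, which spans 250 bases before to 50 bases after each start, holds 4 of the 9 members (*Bcl6*, *Cd200*, *Tbc1d4* and *Slamf6*) and *Xcl1*, while *Cxcr5*, *Nrn1*, *Cd83*, *Maf* and *Sh2d1a* are not among its entries. The minus-strand promoters of *Cd200* (chr16:45409004-45409303), *Tbc1d4* (chr14:101609142-101609441), *Xcl1* (chr1:164935473-164935772) and the second listed start of *Bcl6* (chr16:23981234-23981533) read, 5′ to 3′, with matches to the searched motifs in capitals:
Cd200: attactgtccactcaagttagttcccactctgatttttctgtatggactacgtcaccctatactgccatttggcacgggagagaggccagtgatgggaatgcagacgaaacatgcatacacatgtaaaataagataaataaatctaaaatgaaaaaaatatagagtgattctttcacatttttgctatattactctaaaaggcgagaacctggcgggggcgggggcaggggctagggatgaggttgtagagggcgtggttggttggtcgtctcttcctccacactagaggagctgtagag
Tbc1d4: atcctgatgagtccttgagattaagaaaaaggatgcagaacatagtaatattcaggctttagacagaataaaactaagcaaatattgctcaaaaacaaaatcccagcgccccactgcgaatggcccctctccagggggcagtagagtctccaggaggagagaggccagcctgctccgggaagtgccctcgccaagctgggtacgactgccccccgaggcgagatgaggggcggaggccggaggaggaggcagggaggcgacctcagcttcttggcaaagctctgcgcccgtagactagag
Xcl1: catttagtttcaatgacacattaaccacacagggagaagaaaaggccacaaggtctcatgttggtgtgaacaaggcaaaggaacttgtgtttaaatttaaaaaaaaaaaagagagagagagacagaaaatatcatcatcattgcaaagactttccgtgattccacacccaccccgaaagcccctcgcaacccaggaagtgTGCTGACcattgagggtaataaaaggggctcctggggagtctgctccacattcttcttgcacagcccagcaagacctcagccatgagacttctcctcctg
Bcl6: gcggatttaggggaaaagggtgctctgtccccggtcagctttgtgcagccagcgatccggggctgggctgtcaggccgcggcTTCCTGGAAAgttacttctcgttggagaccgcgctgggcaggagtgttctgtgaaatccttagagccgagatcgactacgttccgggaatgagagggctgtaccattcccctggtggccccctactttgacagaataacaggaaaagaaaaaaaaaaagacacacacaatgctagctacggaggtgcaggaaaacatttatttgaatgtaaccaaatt
Both strands of each window were searched for 10 motifs. The *Xcl1* window held TGCTGAC, the MAF letters, with the first base 50 bases before the start, and 4.67% of the 32851 promoters of this length hold them too. The *Bcl6* window held TTCCTGGAA, a match to the BCL6 letters TTCCTNGAA, with the first base 168 bases before the start (1.59% of promoters). The NFAT core TGGAAA (21.4%) overlapped this match and ended 1 base after it. The other *Bcl6* start (chr16:23988803-23989102, minus strand), which lies at the 5′ end of the gene and is not printed, held the E-box CACGTG (7.15%). None of the 10 motifs was found in the windows of *Cd200*, *Tbc1d4* and *Slamf6*. In no window of a member or of *Xcl1* was the AP-1 motif TGANTCA (7.81% of promoters) or the NR4A motif AAAGGTCA (1.51%) found. The EGR motif GCGTGGG (5.04%) and the cAMP response element TGACGTCA (1.79%) were not found either. The same held for the NF-kB motif GGGANTTCC (1.68%) and the TATA box TATAAA (13.6%). A match is a run of letters and not a bound site.

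*Tnfrsf9* (ENSMUSG00000028965, chr4:150914562-150946102 of GRCm38, plus strand) was taken first as a check of the labels. It had 747 UMIs in wild-type and 253 in knockout CD8 T cells (106 and 32.0 CPM, the UMIs of the gene scaled to a class total of 1e6), and 2993 and 898 in Tregs (337 and 110.1 CPM), log2 ratios of −1.73 and −1.61 for the knockout over the wild type. It was lower but not at 0, and whether the remaining 3′ tags lie outside the deleted part is not known here. *Cd3g*, a T cell gene that does not separate the classes, was at 1349 to 1619.9 CPM in all 4 sets of cells. *Foxp3* and *Cd4* were at 0 in CD8 T cells by the rule, so these values do not check the classes. In Tregs *Foxp3* was at 26.4 (wild type) and 41.2 CPM (knockout), with a UMI in 13.2% and 19.5% of cells. Tregs with 2 or more of the 7 myeloid marker genes, of which *Cst3* was highest, were 25.1% of the wild-type class and 15.9% of the knockout class. For CD8 T cells the shares were 7.86% and 5.83%. *Cst3* had a UMI in 68.8% and 63.8% of wild-type and knockout Tregs, and *Cd74* in 28.0% and 17.8%. The other myeloid markers were scarce in Tregs, with *H2-Aa* at 3.60 and 2.82 CPM and *Lyz2*, *Itgax*, *Xcr1* and *Csf1r* at 1.47 CPM or less. The genotypes also differed in state. The cycling share of CD8 T cells was 20.4% in the wild type against 8.08% in the knockout. Cells with 3 or more UMIs of the quiescence list (with *Ccr7*, *Lef1*, *Klf2* and *S1pr1* among its genes), called quiescent below and counted after each cell was thinned to 2000 UMIs, were 16.7% against 42.7%. In Tregs the cycling shares were 9.79% and 11.6%, and the quiescence shares 8.40% and 18.5%. Genotype ratios of the members are therefore also given within cells of like state. For these splits, UMIs of the quiescence list, *Xcl1* or *Tnfrsf9* were looked for after thinning, and the ratio used all UMIs of the cells. Cells called without an *Xcl1* or *Tnfrsf9* UMI could thus hold some before thinning. In CD8 T cells called without an *Xcl1* UMI there were 290 (wild type) and 192 (knockout). The split by *Ikzf2* or *Il2ra* below used unthinned UMIs. The libraries shared 16 cell barcodes, and doublets were not removed.

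All 9 members were found in both classes and both libraries, and between classes they fell into 3 groups. *Maf*, *Cd83* and *Cxcr5* were clearly higher in Tregs, and *Tbc1d4* was moderately higher there. *Bcl6*, *Cd200*, *Slamf6*, *Nrn1* and wild-type *Sh2d1a* each differed by less than 1.5-fold between the classes. *Xcl1* went the other way. The median log2 ratio of the members, Treg over CD8, was 0.50 for the wild-type library and 0.95 for the knockout library, beside an all-gene median of 0.12 and 0.15 (genes with 20 UMIs or more). At least 1.5-fold higher in Tregs were 4 of 9 members in the wild type (19.4% of all genes tested) and 5 of 9 in the knockout (17.5% of genes). No member was 1.5-fold lower in Tregs in either library, as 8.78% and 8.39% of genes were.

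Of the transcription factors, *Maf* (chr8:115682942-115707794, minus strand) was the member with the widest gap between classes. It was at 13.5 CPM in wild-type and 16.9 CPM in knockout CD8 T cells, and at 401 and 463 CPM in Tregs, log2 ratios of 4.89 (4.59 to 5.20) for the wild-type and 4.77 (4.52 to 5.03) for the knockout library. In cells thinned to 2000 UMIs, *Maf* had a UMI in 47.6% and 44.6% of Tregs (67.4% and 62.3% unthinned) and in 2.52% and 2.53% of CD8 T cells. Its CD8 transcripts came from few cells, since the 10 cells with most *Maf* held 47.4% and 47.0% of them. *Bcl6* (chr16:23965052-23988852, minus strand), the repressor at the head of the follicular program, was at 29.1 CPM in wild-type and 35.8 CPM in knockout CD8 T cells, and at 36.3 and 45.5 CPM in Tregs. The Treg-over-CD8 ratio of *Bcl6* was only 0.32 (0.064 to 0.58) and 0.35 (0.12 to 0.57), and no cell of any set held more than 7 *Bcl6* UMIs.

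*Cxcr5* (chr9:44511787-44561877, minus strand), the follicle-homing chemokine receptor, was at 10.8 CPM in wild-type and 9.86 CPM in knockout CD8 T cells, and at 31.4 and 34.2 CPM in Tregs. It was higher in Tregs by 1.53 (1.16 to 1.92) and 1.79 (1.43 to 2.18) on the log2 scale. *Cd83* (chr13:43784775-43803132, plus strand) was at 7.27 CPM in wild-type and 10.6 CPM in knockout CD8 T cells, and at 61.0 and 55.8 CPM in Tregs, ratios of 3.07 (2.65 to 3.51) and 2.39 (2.05 to 2.75). Both were thus low in CD8 T cells, where *Cd83* had only 51 and 84 UMIs, and 56.9% and 51.2% of these lay in 10 cells. *Cd200* (chr16:45382135-45409053, minus strand), the ligand of the inhibitory CD200 receptor, was at 126 CPM in wild-type and 92.2 CPM in knockout CD8 T cells, and at 139.8 and 116 CPM in Tregs. Its classes differed by only 0.15 (0.021 to 0.27) and 0.33 (0.18 to 0.47), and the wild-type ratio turned to −0.0024 without cycling cells.

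*Slamf6* (chr1:171917515-171953170, plus strand), the homotypic SLAM family receptor, was at 109 CPM in wild-type and 154 CPM in knockout CD8 T cells, and at 135 and 167 CPM in Tregs. *Sh2d1a* (chrX:42502453-42529330, plus strand), which encodes the adaptor SAP, was at 261 CPM in wild-type and 116 CPM in knockout CD8 T cells, and at 243 and 236 CPM in Tregs. The knockout CD8 level stood below the other 3, which lay close together, and the Treg-over-CD8 ratios were −0.10 (−0.19 to −0.013) (wild type) and 1.03 (0.92 to 1.15) (knockout). The small wild-type ratio changed sign with the processing. *Nrn1* (chr13:36725361-36735131, minus strand), the neuritin gene, was at 29.1 CPM in wild-type and 46.9 CPM in knockout CD8 T cells, and at 41.1 and 34.3 CPM in Tregs. Its class ratios were 0.50 (0.25 to 0.75) (wild type) and −0.45 (−0.68 to −0.22) (knockout), and the latter was 0.51 under a stricter gate (*Cd8a* and *Cd8b1* both present and no *Il2ra* or *Ikzf2* UMI in CD8 T cells, 2 or more Treg marker UMIs in Tregs). *Tbc1d4* (chr14:101442360-101609191, minus strand) was at 46.3 CPM in wild-type and 69.0 CPM in knockout CD8 T cells, and at 88.2 and 134 CPM in Tregs, higher in Tregs by 0.93 (0.74 to 1.12) and 0.95 (0.81 to 1.11). *Xcl1* (chr1:164931644-164935527, minus strand) was at 689 CPM in wild-type and 563 CPM in knockout CD8 T cells, and at 16.5 and 13.7 CPM in Tregs.

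**Figure D1:**
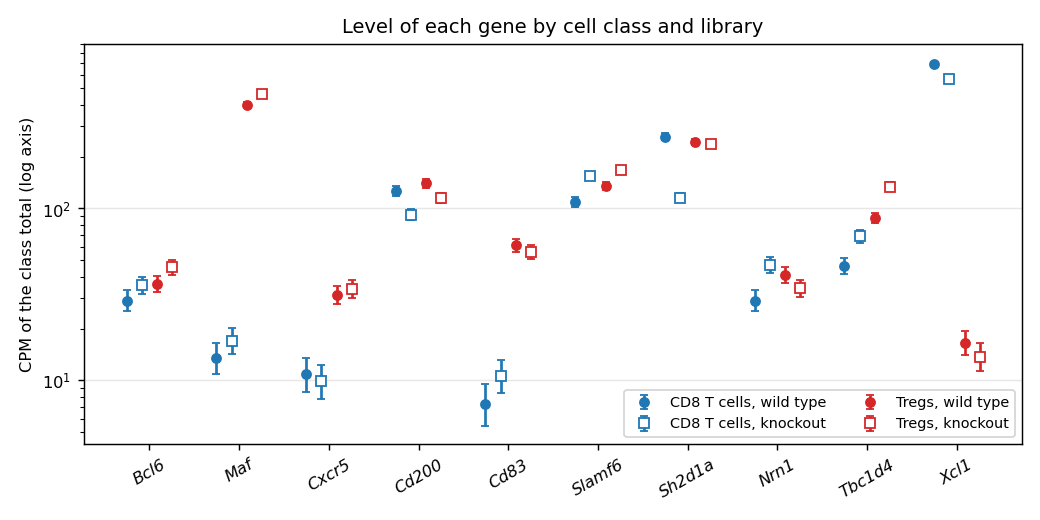
Level of each member and of *Xcl1* in CPM of the class total (log axis), with 95% exact Poisson intervals for counting error, in CD8 T cells (blue) and Tregs (red) of the wild-type (filled) and knockout (open) libraries. *Maf*, *Cxcr5* and *Cd83* sit higher in Tregs, *Xcl1* sits higher in CD8 T cells, and *Sh2d1a* is lower in knockout CD8 T cells (116 CPM) than in the 3 other sets.

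Several members were nearly absent from quiescent CD8 T cells. *Cd200* had a UMI, after thinning, in 24.0% (wild type) and 20.4% (knockout) of cells with no UMI of the quiescence list, and in 0.685% and 2.97% of quiescent cells. For *Tbc1d4* these shares were 9.54% and 15.6% against 2.05% and 1.39%, and for *Nrn1* 4.95% and 9.83% against 0.685% and 0.594%. *Xcl1* had the same pattern, with 31.0% and 34.8% against 2.74% and 2.57%. *Slamf6* and *Bcl6* did not share it: *Slamf6* was in 18.5% and 20.1% of the cells with none of the list and in 28.8% and 24.2% of the quiescent cells, and *Bcl6* in 5.50% and 7.43% against 5.48% and 6.93%. *Sh2d1a* lay between, at 42.6% and 23.0% against 18.5% and 13.1%. *Maf*, at 3.49% and 3.84% against 0.685% and 0.792%, and *Cd83*, at 1.65% and 3.84% against 0% and 0.198%, were in fewer cells and were likewise lower in quiescent cells, for wild-type *Cd83* within counting error. The log2 ratio of the *Maf* level in cells with none of the list to that in quiescent cells was 3.01 (0.42 to 8.36) in wild-type cells, on 30 and 1 UMIs, and 2.04 (0.54 to 3.84) in knockout cells, where that of *Cd83* was 4.74 (2.11 to 10.10). *Cxcr5*, at 2.57% and 2.64% against 1.37% and 2.38%, had ratios of 0.91 (−1.22 to 4.09) and 0.035 (−1.27 to 1.31), within counting error. For *Cd83* the 0 of 146 quiescent wild-type cells allow a share of up to 2.05% by a limit of 3 cells, and of up to 2.49% by the exact binomial interval. Quiescent CD8 T cells had medians of 5049 and 4992 UMIs before thinning, against 6141.5 and 5326.5 over all cells of the class deep enough to be thinned. The split by this list is a range and not a cell type.

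In Tregs the members divided differently. *Maf* had a UMI in 57.2% and 59.9% of Tregs with none of the quiescence list and in 21.0% and 20.2% of those with 3 or more, and *Cd200* in 23.7% and 21.8% against 10.5% and 8.56%. *Bcl6* went the opposite way, in 6.10% and 6.63% against 16.1% and 17.9%. In level, the log2 ratios of Tregs with none of the list over quiescent Tregs were −1.24 (−1.999 to −0.43) and −1.42 (−2.04 to −0.80) for *Bcl6* in the wild-type and knockout libraries, and for *Maf* 1.79 (1.33 to 2.28) and 2.31 (1.96 to 2.68). *Bcl6* and *Maf* thus went opposite ways. *Nrn1* had 1.31 (−0.11 to 3.23) and 2.38 (0.93 to 4.31), on 4 UMIs in the quiescent Tregs of each library. *Slamf6* lay on the side of *Bcl6*, at −0.45 (−0.91 to 0.040) and −0.55 (−0.90 to −0.20), beyond counting error in the knockout. *Sh2d1a*, *Cd83*, *Tbc1d4* and *Cxcr5* had intervals that include 0 in both libraries.

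Whether the members were found in the same cells was asked next. For each member, its level was compared between cells with at least 2 of the other 8 members detected and cells with none of them, with every cell thinned to 2000 UMIs. All 9 members had ratios above 0 in CD8 T cells, though not all beyond counting error, with a median log2 ratio of 1.55 for the wild-type library and 1.96 for the knockout library. In Tregs the median was 0.57 and 0.12, with members on both sides of 0. At least 1.5-fold higher were 7 of 9 members in wild-type and 8 of 9 in knockout CD8 T cells, where 13.5% and 15.2% of all genes were that much higher in cells with 2 or more of the 9 members than in cells with none, a split close to but not the same as the one that leaves out the member itself. Under 20 UMIs were *Cxcr5* and *Cd83* in the wild type and *Cd83* and *Maf* in the knockout. In Tregs it was 4 and 3 of 9, beside 13.6% and 15.7% of genes. The all-gene medians of these 4 comparisons were 0.044, 0.060, 0.039 and 0.061.

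The tight part of the CD8 program was *Cd200*, *Nrn1*, *Tbc1d4* and *Cd83*. *Nrn1* was at 80.2 CPM in wild-type CD8 T cells that held 2 or more other members and at 17.3 CPM in those that held none, a log2 ratio of 2.21 (1.18 to 3.36). In the knockout these were 131 and 7.02 CPM, a ratio of 4.22 (3.13 to 5.52). *Tbc1d4* had ratios of 1.55 (0.81 to 2.32) and 2.80 (2.16 to 3.46), and *Cd200* of 1.82 (1.32 to 2.33) and 2.15 (1.59 to 2.72). *Cd83* had 3.01 (0.78 to 6.24) and 2.73 (1.08 to 4.60), from 10 and 11 UMIs in the cells with others. Beyond these, *Slamf6* was higher by 0.93 (0.48 to 1.38) and 0.86 (0.45 to 1.25), *Sh2d1a* had 0.45 (0.063 to 0.82) and 0.29 (−0.28 to 0.83), and *Bcl6* 0.90 (0.029 to 1.77) and 1.13 (0.39 to 1.85). The *Bcl6* ratios did not hold without thinning, where they were −0.12 and −0.17. *Cxcr5* had 1.91 (0.072 to 4.06) and 0.89 (−0.49 to 2.17), and *Maf* 0.072 (−1.40 to 1.45) and 1.96 (0.47 to 3.50), so that wild-type *Maf* and knockout *Cxcr5* and *Sh2d1a* did not differ beyond counting error.

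Of 36 pairs of members, the interval of observed over expected cells lay above 1 for 8 in wild-type and 8 in knockout CD8 T cells, and below 1 for none. Of these, 4 and 5 joined 2 genes of the core, and 4 and 3 a gene of the core with another member. No share over all pairs of genes stands beside these counts, so they are a description and are not read as more than usual. *Cd200* and *Nrn1* were found together in 16 cells against 6.31 expected (2.54 times, 1.45 to 4.12) of the wild-type CD8 class, and in the knockout in 23 cells against 5.05 expected (4.56 times, 2.89 to 6.84). *Cd200* and *Tbc1d4* were together in 26 cells against 11.8 expected (2.21 times, 1.44 to 3.24) and 37 cells against 9.07 expected (4.08 times, 2.87 to 5.62). For *Cd200* and *Cd83* it was 7 cells against 1.70 expected (4.11 times, 1.65 to 8.46) and 9 cells against 1.85 expected (4.85 times, 2.22 to 9.21). *Nrn1* and *Tbc1d4* were together in 7 cells against 2.92 expected (2.40 times, 0.963 to 4.94) and 17 cells against 3.64 expected (4.67 times, 2.72 to 7.47). *Tbc1d4* and *Cd83* were together in 2 cells against 0.789 expected (2.53 times, 0.307 to 9.15) and 7 cells against 1.34 expected (5.23 times, 2.10 to 10.8). *Nrn1* and *Cd83* were together in 4 cells against 0.423 expected (9.45 times, 2.57 to 24.2) and 2 cells against 0.745 expected (2.68 times, 0.325 to 9.70). The 7 pairs with a gene outside the core lay above 1 beyond counting error in 1 library each. *Bcl6* and *Nrn1* were together in 5 cells against 2.16 expected (2.32 times, 0.752 to 5.40) and 15 cells against 3.43 expected (4.37 times, 2.44 to 7.20), *Nrn1* and *Slamf6* in 18 cells against 7.92 expected (2.27 times, 1.35 to 3.59) and 17 cells against 11.6 expected (1.46 times, 0.852 to 2.34), and *Tbc1d4* and *Slamf6* in 24 cells against 14.8 expected (1.63 times, 1.04 to 2.42) and 26 cells against 20.9 expected (1.24 times, 0.813 to 1.82). The others were, in the wild type, *Cxcr5* with *Tbc1d4* at 3.17 times (1.03 to 7.39) and *Cd200* with *Slamf6* at 1.44 times (1.06 to 1.92), and, in the knockout, *Bcl6* with *Tbc1d4* at 2.11 times (1.12 to 3.60) and *Cd200* with *Maf* at 2.59 times (1.12 to 5.10). By contrast *Slamf6* and *Sh2d1a*, receptor and adaptor, were together in 66 cells against 67.6 expected (0.976 times, 0.755 to 1.24) and 52 cells against 50.1 expected (1.04 times, 0.776 to 1.36) in CD8 T cells, close to independence.

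In Tregs the interval of observed over expected cells lay above 1 for 3 of 36 wild-type and 5 of 36 knockout pairs, and below 1 for 2 and 1. As for CD8 T cells, no share over all pairs of genes stands beside these counts. *Slamf6* and *Sh2d1a* were found together in 150 cells against 119 expected (1.26 times, 1.06 to 1.48) of the wild-type and 149 cells against 115 expected (1.29 times, 1.09 to 1.52) of the knockout library. *Tbc1d4* was together with *Cd83* in 37 cells against 17.6 expected (2.10 times, 1.48 to 2.90) and 36 cells against 18.4 expected (1.96 times, 1.37 to 2.71), and with *Sh2d1a* in 98 cells against 65.2 expected (1.503 times, 1.22 to 1.83) and 101 cells against 80.7 expected (1.25 times, 1.02 to 1.52). These pairs lay above 1 in both libraries. In the knockout alone the interval lay above 1, a difference between libraries that was not tested, for *Cd200* and *Nrn1*, with 18 cells against 13.2 expected (1.36 times, 0.806 to 2.15) and 17 cells against 9.72 expected (1.75 times, 1.02 to 2.80), and for *Cxcr5* and *Cd83*, with 10 cells against 6.83 expected (1.47 times, 0.703 to 2.69) and 12 cells against 6.04 expected (1.99 times, 1.03 to 3.47). *Tbc1d4* with *Cd83* and *Cd200* with *Nrn1* were also among the core pairs of the CD8 T cells. The pairs below 1 reached it in 1 library each. *Cd200* and *Slamf6* were together in 50 cells against 69.0 expected (0.725 times, 0.538 to 0.956) of the wild-type and 54 cells against 58.5 expected (0.923 times, 0.694 to 1.20) of the knockout library. *Cd83* and *Maf* were together in 46 cells against 65.7 expected (0.700 times, 0.512 to 0.934) in the wild type and 36 cells against 45.0 expected (0.800 times, 0.560 to 1.11) in the knockout, and *Bcl6* and *Maf* in 44 cells against 53.3 expected (0.825 times, 0.599 to 1.11) and 45 cells against 66.4 expected (0.678 times, 0.494 to 0.907). In the comparison by the other 8 members, *Sh2d1a* was higher in Tregs with other members by 0.63 (0.34 to 0.93) and 0.83 (0.50 to 1.17), *Tbc1d4* by 0.91 (0.32 to 1.55) and 0.72 (0.28 to 1.18), *Nrn1* by 1.31 (0.24 to 2.58) and 1.604 (0.39 to 3.11) and *Slamf6* by 0.55 (0.13 to 0.99) and 0.41 (0.028 to 0.80). *Maf*, with −0.12 (−0.33 to 0.087) and −0.090 (−0.30 to 0.12), and *Cd200*, with −0.18 (−0.58 to 0.22) and 0.047 (−0.43 to 0.54), did not differ beyond counting error. *Bcl6* had −0.13 (−0.86 to 0.65) and −0.61 (−1.22 to 0.0043). *Cd83*, with 0.57 (−0.0099 to 1.20) and 0.026 (−0.61 to 0.70), did not either, and *Cxcr5* was higher in the wild type alone, at 2.01 (0.56 to 3.94) and 0.12 (−0.72 to 1.02), a difference between libraries that was not tested.

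**Figure D2:**
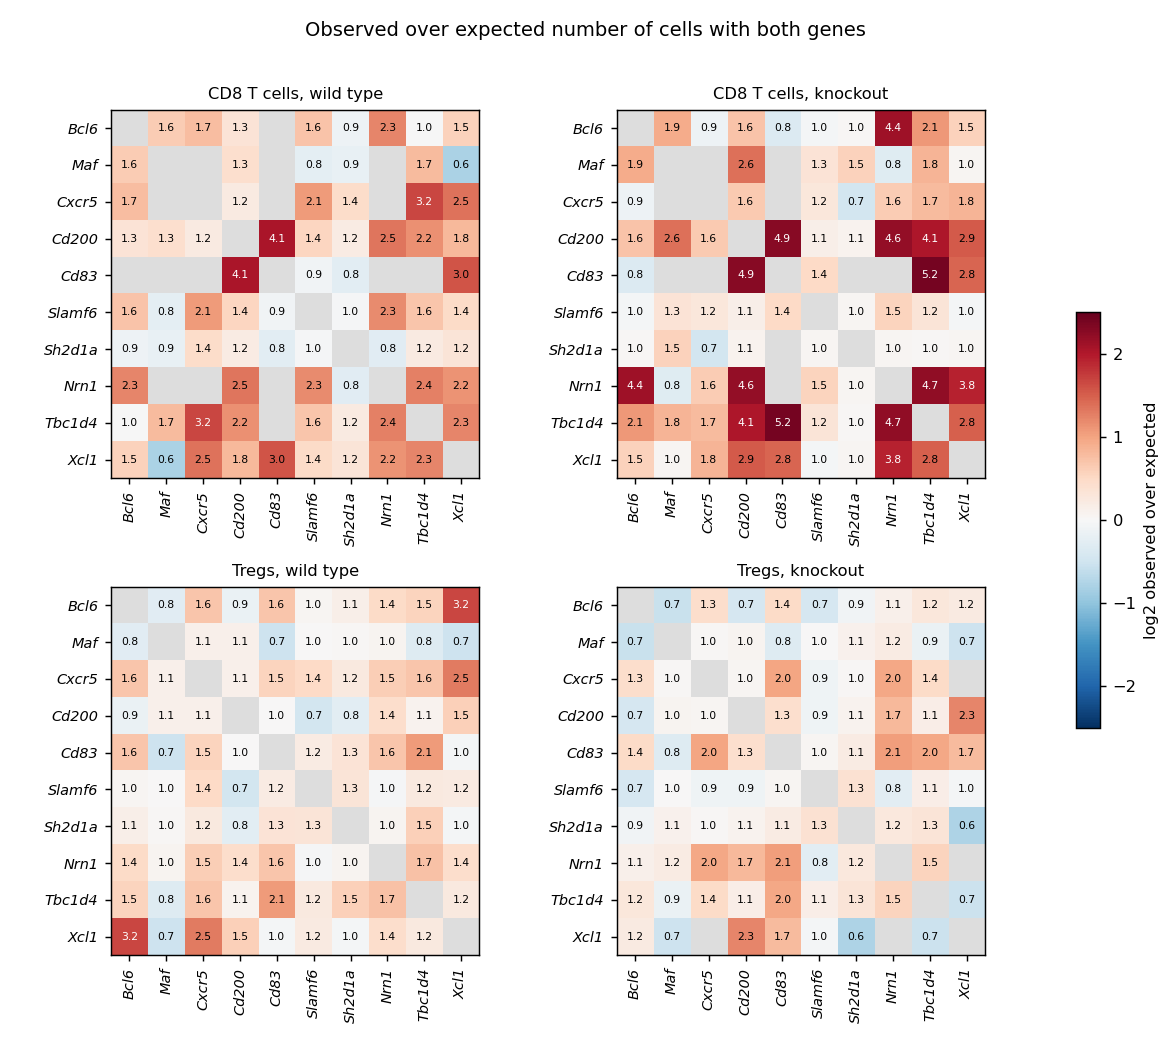
Observed over expected number of cells that hold a UMI of both genes, after thinning to 2000 UMIs, for the 9 members and *Xcl1* in each class and library. Color is the log2 of the printed ratio, and grey marks pairs with under 1 cell expected or none observed. In CD8 T cells the pairs shown among *Cd200*, *Nrn1*, *Tbc1d4*, *Cd83* and *Xcl1* have ratios well above 1, with *Cd200* and *Tbc1d4* at 2.21 and 4.08, and in Tregs the ratios among members lie nearer to 1.

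The same core went with *Xcl1*. After thinning, 206 wild-type CD8 T cells had an *Xcl1* UMI and 668 had none, and in the knockout 191 and 993. The median log2 ratio of the members, *Xcl1*-positive over *Xcl1*-zero cells, was 1.56 for the wild type and 1.24 for the knockout (all genes, 0.028 and 0.063). At least 1.5-fold higher were 8 of 9 and 5 of 9 members, beside 12.6% and 17.3% of all genes that reached 20 UMIs. All members but wild-type *Cd83*, with 13 UMIs, reached that minimum. Before thinning the *Xcl1*-positive cells were the deeper ones, with medians of 7230.5 and 7641 UMIs against 5958 and 5149.

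*Tbc1d4* was at 117 CPM in *Xcl1*-positive and 26.9 CPM in *Xcl1*-zero cells of the wild type, a log2 ratio of 2.11 (1.46 to 2.78). In the knockout it was at 196 CPM in *Xcl1*-positive and 31.2 CPM in *Xcl1*-zero cells, 2.65 (2.15 to 3.16). *Cd200* was found in 30.1% of *Xcl1*-positive wild-type and 13.0% of *Xcl1*-zero cells, and in 29.8% and 6.55% in the knockout, with ratios in level of 1.56 (1.16 to 1.96) and 2.33 (1.87 to 2.78). The *Xcl1*-positive shares with *Cd200* were thus alike in size in the 2 genotypes, and the *Xcl1*-zero shares were not. *Nrn1* was higher by 1.98 (1.13 to 2.84) and 3.66 (2.90 to 4.47), and *Cd83* by 2.87 (1.03 to 5.02) and 2.49 (1.24 to 3.76). *Cxcr5* had 2.28 (0.87 to 3.78) and 1.24 (−0.0014 to 2.38) from 12 and 10 UMIs, and the wild-type value was −0.14 with cells thinned to 1000 UMIs. *Slamf6* and *Sh2d1a* were higher with *Xcl1* in the wild type, by 0.71 (0.30 to 1.10) and 0.70 (0.40 to 0.98), and in the knockout had 0.038 (−0.37 to 0.43) and −0.035 (−0.56 to 0.46). *Bcl6* had 1.01 (0.19 to 1.80) and 0.54 (−0.23 to 1.26), and *Maf* did not differ beyond counting error in either genotype, at −0.84 (−2.57 to 0.55) and −0.11 (−1.84 to 1.28). *Tnfrsf9* itself, from the UMIs that remained in the knockout, was higher by 2.04 (1.56 to 2.52) and 2.42 (1.66 to 3.18).

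**Figure D3:**
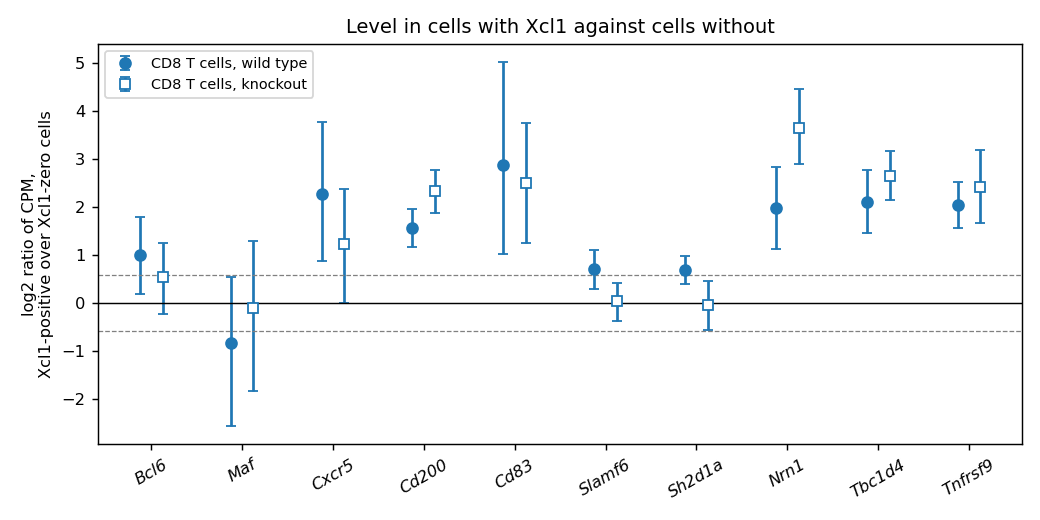
log2 ratio of CPM between CD8 T cells with and without an *Xcl1* UMI, each cell thinned to 2000 UMIs, for the 9 members and *Tnfrsf9* in the wild-type (filled) and knockout (open) library. Bars are 95% exact intervals for counting error and dashed lines mark 1.5-fold. *Nrn1* (1.98 and 3.66), *Tbc1d4*, *Cd200* and *Cd83* lie above 1.5-fold in both libraries and *Maf* in neither.

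Read the other way, the share of CD8 T cells with *Xcl1* was larger the more members a cell held. It was 13.6%, 21.6%, 35.0% and 56.8% (44.7 to 68.2%) of wild-type cells with 0, 1, 2 and 3 or more members. In the knockout these shares were 10.7%, 15.0%, 27.2% and 47.1% (35.1 to 59.4%). The intervals of the cells with 0 and with 3 or more members did not overlap in either library. Cells with 3 or more members were 8.47% of wild-type and 5.91% of knockout CD8 T cells (74 and 70 cells). The share of cycling cells was lower among them than among cells with none, 5.41% against 20.7% in the wild type and 2.86% against 7.30% in the knockout. So was the share of quiescent cells, at 5.41% against 25.9% and 11.4% against 50.7%. Its part in the *Xcl1* shares was not tested. The *Xcl1* ratios above were also taken under other choices, among them cells with none of the quiescence list alone. The lowest values were 1.09 and 1.10 for *Cd200*, 1.53 and 2.33 for *Nrn1*, 1.73 and 1.56 for *Tbc1d4* and 0.93 and 0.91 for *Cd83*. Each other member had a lowest value below 0 in at least 1 library. In Tregs 20.3% and 20.7% of cells held 3 or more members.

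**Figure D4:**
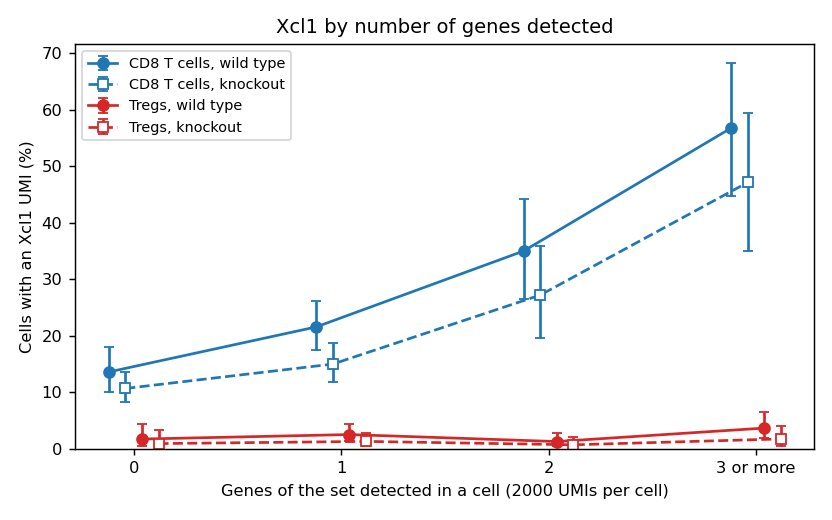
Share of cells with an *Xcl1* UMI, in percent, against the number of the 9 members detected in the cell, each cell thinned to 2000 UMIs, for CD8 T cells (blue) and Tregs (red) of the wild-type (solid) and knockout (dashed) library. Bars are 95% exact binomial intervals. The CD8 shares go from 13.6% and 10.7% to 56.8% and 47.1%, and the Treg shares are at most 3.67%.

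*Xcl1* was scarce in Tregs. It had 147 and 112 UMIs, of which 54.4% and 71.4% lay in 10 cells, and a UMI in 2.24% and 1.15% of thinned Tregs, beside 2.74% and 2.57% of quiescent CD8 T cells. Single Tregs held up to 37 and 29 *Xcl1* UMIs, and where these transcripts came from was not tested. Only 33 wild-type and 16 knockout Tregs were *Xcl1*-positive. The member medians in those cells were 0.51 and 0.083, with 4 and 4 of 9 members at least 1.5-fold higher beside 20.2% and 26.0% of genes. *Bcl6* had 1.97 (0.87 to 2.90) in the wild type, on 10 UMIs, and −0.24 with another draw of the thinned UMIs. No co-expression with *Xcl1* in Tregs is read from these counts.

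Other genes were then ranked for likeness to the whole set in CD8 T cells. Ordered by the smaller of the 2 libraries' ratios between cells with 2 or more members and cells with none, over 2897 genes with at least 50 thinned UMIs in each library, the 10 genes most like the set were *Nrp1*, *Gpm6b*, *Eea1*, *Izumo1r*, *Ikzf2*, *Tnfrsf4*, *Lclat1*, *Pou2f2*, *Xcl1* and *Tnfsf8*. *Nrp1*, which encodes the receptor neuropilin-1, had log2 ratios of 2.06 and 2.65, *Izumo1r*, the gene of folate receptor 4, 1.59 and 2.30, and *Ikzf2*, the gene of the transcription factor Helios, 1.59 and 2.11. *Tnfrsf4*, which encodes OX40, had 1.57 and 3.11, and *Xcl1* was the ninth with 1.51 and 2.30. Of the Treg marker list, *Cd4* and *Foxp3* were at 0 in these cells by the rule. *Ikzf2*, above, and *Ctla4*, at 0.59 (0.28 to 0.89) and 1.15 (0.87 to 1.42), were both higher beyond counting error in both libraries. *Tnfrsf18*, at 0.42 (−0.17 to 1.00) and −0.027 (−0.65 to 0.57), and *Il2ra*, at −0.44 (−2.13 to 1.05) and 1.11 (−0.69 to 2.83) on 6 UMIs in each library, had intervals that included 0. The CD8 markers were not lower in the same cells, with *Cd8a* at 0.14 and 0.47 and *Cd8b1* at 0.14 and 0.081. Their median depth was 6317.5 and 6129 UMIs, against 5910 and 5209.5 in cells with none of the members. The part of droplets that hold a CD8 T cell and a Treg in these values was not tested.

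In Tregs the first 9 genes most like the set, among 5080 ranked, were *Tox2*, *Slc25a20*, *Egln3*, *Rin2*, *B3galt1*, *E130308A19Rik*, *Gpm6b*, *Cdc14a* and *Il10*. *Tox2*, a follicular helper transcription factor, had 1.55 (0.43 to 2.92) and 1.43 (0.21 to 2.94). *Il10*, the gene of the suppressive cytokine interleukin-10, had 1.62 (0.94 to 2.38) and 1.05 (0.42 to 1.75). The split took in 768 and 713 Tregs with 2 or more members, against 232 and 217 with none. *Maf* (47.6% and 44.6% of thinned Tregs) and *Sh2d1a* (34.7% and 31.9%) were found most often, so likeness here leans on such members. Of the first 50 genes of each class, 4 were shared (8% of each list): *Gpm6b*, *Phactr2*, *Slc22a15* and *St6galnac3*. No expected number stands beside this count, and it is a description. *Gpm6b* had 1.88 and 2.33 in CD8 T cells and 1.85 and 1.09 in Tregs.

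Between genotypes the members did not share a direction. Their median log2 ratio, knockout over wild type, was 0.32 (all genes, 0.036) in CD8 T cells, and the range was −1.17 to 0.69. *Nrn1* was the only member at least 1.5-fold higher, beside 13.7% of all genes tested, and *Sh2d1a* the only member at least 1.5-fold lower, beside 8.20%. In Tregs the median was 0.12 (all genes, 0.038), with *Tbc1d4* the only member at least 1.5-fold higher (6.93% of genes) and none as much lower (3.62% of genes). All 9 members reached the minimum of 20 UMIs in both classes.

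*Sh2d1a*, the SAP gene, gave the widest genotype gap. It had 1832 UMIs in wild-type against 915 in knockout CD8 T cells, 261 CPM (249 to 273) and 116 CPM (108 to 123), a log2 ratio of −1.17 (−1.29 to −1.06). In Tregs it had 2160 and 1928 UMIs and a ratio of −0.039 (−0.13 to 0.050). A UMI was found in 36.2% and 17.8% of thinned CD8 T cells (64.4% and 41.5% unthinned) and in 34.7% and 31.9% of Tregs. The CD8 ratio was below 0 in each state, though smaller in quiescent cells: −1.07 (−1.21 to −0.93) in cells that did not cycle, −1.17 (−1.40 to −0.94) in cycling cells, −0.97 (−1.13 to −0.83) in cells with none of the quiescence list and −0.38 (−0.76 to −0.00035) in quiescent cells. It was −1.15 (−1.41 to −0.90) with 1 or 2 UMIs of that list, −1.34 (−1.57 to −1.11) in *Xcl1*-positive and −1.09 (−1.23 to −0.96) in *Xcl1*-zero cells. *Fyn*, the kinase that SAP recruits, was also lower in knockout CD8 T cells, at 557 and 404 CPM (−0.46), and in Tregs differed by less than counting error (−0.034).

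*Slamf6*, whose product signals through SAP, was by contrast higher in knockout CD8 T cells: 765 and 1219 UMIs gave 109 and 154 CPM, a ratio of 0.50 (0.37 to 0.63). In Tregs the *Slamf6* ratio was 0.31 (0.19 to 0.42), again above 0 beyond counting error. *Slamf6* is a gene that quiescent CD8 T cells also express, and among quiescent CD8 T cells alone the ratio was 0.029 (−0.27 to 0.34), while in cells with none of the quiescence list it was 0.46 (0.27 to 0.65). In *Xcl1*-positive CD8 T cells the *Slamf6* ratio was 0.015 (−0.23 to 0.26), within counting error. In those without an *Xcl1* UMI after thinning it was 0.72 (0.56 to 0.88). *Cd200* was lower in the knockout in both classes. It had 886 and 729 UMIs in CD8 T cells (126 and 92.2 CPM), a ratio of −0.45 (−0.60 to −0.31), and 1243 and 942 in Tregs, a ratio of −0.28 (−0.40 to −0.15). Its share of thinned CD8 T cells was 17.0% and 10.3%, but within cells with none of the quiescence list it was at 162 CPM in the wild-type and 158 CPM in the knockout library, a ratio of −0.036 (−0.20 to 0.12). In cells with 1 or 2 UMIs of the list the *Cd200* ratio was 0.42 (0.047 to 0.81), above 0, in quiescent cells 0.29 (−0.86 to 1.61), and in cells that did not cycle −0.76 (−0.93 to −0.60), so that it differed in sign between states. It was 0.28 (−0.047 to 0.60) in cycling cells and 0.22 (−0.13 to 0.56) in cells with a *Tnfrsf9* UMI, both within counting error. *Cd200r1*, which encodes the receptor of CD200, was at 7.70 and 11.6 CPM in CD8 T cells (0.60) and at 33.0 and 39.0 CPM in Tregs (0.24).

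*Nrn1*, *Tbc1d4* and *Cd83* were higher in knockout CD8 T cells, and where they were higher depended on which CD8 T cells were looked at. *Nrn1* had 204 and 371 UMIs, a ratio of 0.69 (0.44 to 0.94), *Tbc1d4* 325 and 546, a ratio of 0.58 (0.37 to 0.78), and *Cd83* 51 and 84, a ratio of 0.55 (0.028 to 1.08). The share of cells with the gene had intervals that overlap: thinned, *Nrn1* was in 4.23% and 4.14% of CD8 T cells and *Tbc1d4* in 7.89% and 7.43%. The 10 cells with most *Nrn1* held 38.7% and 41.0% of its UMIs, and 1 knockout cell held 49 UMIs of *Tbc1d4*. With each cell given the same weight the ratios were 0.35, 0.22 and 0.24, and without cycling cells 0.28 (−0.0052 to 0.57), 0.22 (−0.00025 to 0.44) and 0.11 (−0.46 to 0.69). In the 182 wild-type and 97 knockout cycling cells they were 1.79 (1.27 to 2.33), 1.43 (0.92 to 1.94) and 1.81 (0.48 to 3.25). Among cells with none of the quiescence list they were 1.30 (1.01 to 1.59), 1.28 (1.05 to 1.51) and 1.22 (0.66 to 1.80). Below 0, within counting error, were quiescent cells for *Nrn1*, at −1.56 (−3.22 to 0.13) on 7 and 8 UMIs, and *Tbc1d4*, at −0.43 (−1.68 to 0.96) on 8 and 20, and cells with 1 or 2 UMIs of the list for *Cd83*, at −0.16 (−2.13 to 1.89) on 5 and 6.

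These 3 genes were higher in CD8 T cells that had a UMI of *Ikzf2* or *Il2ra*, a split added after the stricter gate, which leaves such cells out, had turned *Tbc1d4* to −0.19 and *Cd83* to −0.62. There were 385 such cells in the wild type (43.2%, median 7786 UMIs) and 363 in the knockout (30.2%, 6409 UMIs). In them *Nrn1* was at 35.3 and 85.6 CPM, a ratio of 1.28 (0.97 to 1.59), *Tbc1d4* at 59.8 and 131 CPM, 1.13 (0.89 to 1.37), and *Cd83* at 9.42 and 21.2 CPM, 1.17 (0.55 to 1.80). Among those with neither gene the ratios were 0.014 (−0.43 to 0.46), −0.057 (−0.43 to 0.32) and −0.30 (−1.34 to 0.75), so that none differed beyond counting error. *Cd200* was the reverse, at 0.024 (−0.16 to 0.21) with and −0.88 (−1.12 to −0.65) without, and *Sh2d1a* was lower in both, at −1.05 (−1.21 to −0.89) and −1.16 (−1.33 to −0.99). *Slamf6* had 0.52 (0.34 to 0.71) and 0.52 (0.34 to 0.72), *Bcl6* 0.42 (0.039 to 0.81) and 0.23 (−0.15 to 0.61), *Cxcr5* −0.17 (−0.87 to 0.51) and −0.013 (−0.71 to 0.70), and *Maf* 0.34 (−0.12 to 0.81) and 1.12 (0.29 to 2.03). Genes of different kinds differed between the same cells. *Ctla4*, a Treg marker, had 0.44 (0.31 to 0.56) with and −0.26 (−0.38 to −0.13) without, Gzmb, the gene of the cytotoxic effector granzyme B, 0.51 (0.35 to 0.68) and −0.69 (−0.85 to −0.54), and *Xcl1* 0.091 (0.021 to 0.16) and −0.51 (−0.62 to −0.40). Cycling cells were 30.6% and 15.4% of the wild-type and knockout cells with, and 12.6% and 4.90% of those without. *Cd8a* had 0.0012 (−0.067 to 0.070) and −0.39 (−0.46 to −0.33) and *Tnfrsf18* −0.0099 (−0.24 to 0.22) and 0.034 (−0.19 to 0.26). The part of other cell types and of cycling in these ratios was not tested.

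**Figure D5:**
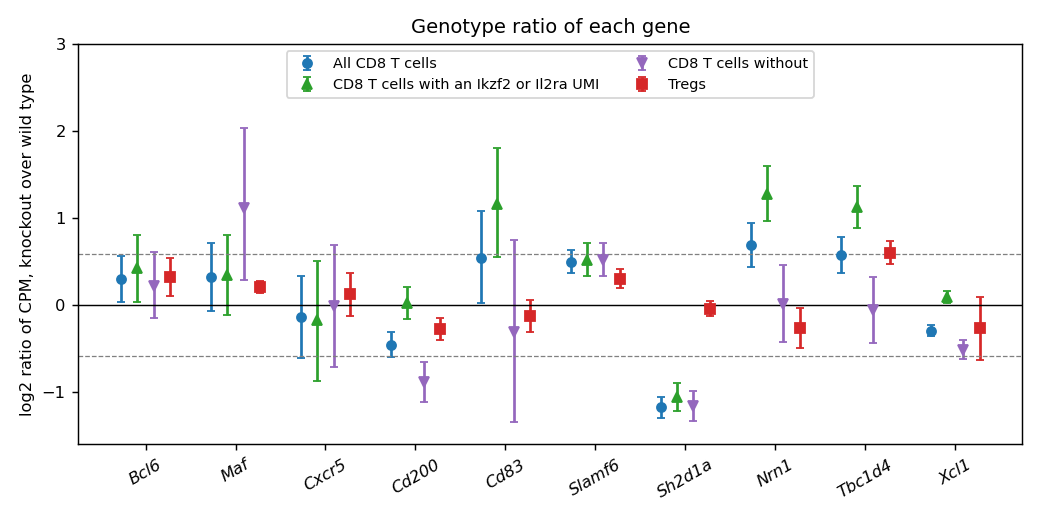
log2 ratio of CPM, knockout over wild type, of the 9 members and *Xcl1* in all CD8 T cells, in CD8 T cells with and without an *Ikzf2* or *Il2ra* UMI, and in Tregs. Bars are 95% exact intervals for counting error and dashed lines mark 1.5-fold. *Sh2d1a* lies near −1.17 in each CD8 set and near 0 in Tregs, and *Nrn1*, *Tbc1d4* and *Cd83* lie above 0 in CD8 T cells with *Ikzf2* or *Il2ra* (1.28, 1.13 and 1.17) and near or below 0 in those without.

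Over the whole CD8 class the remaining members differed less. *Bcl6* had 204 and 283 UMIs, a ratio of 0.30 (0.034 to 0.57) that was −0.028 (−0.31 to 0.25) without cycling cells and −0.12 (−0.56 to 0.32) in *Xcl1*-positive cells. *Maf*, at 0.32 (−0.067 to 0.72), and *Cxcr5*, at −0.14 (−0.61 to 0.34), lay within counting error. Within states they did not all do so: *Maf* had 1.67 (0.74 to 2.71) in cells with 1 or 2 UMIs of the quiescence list and 3.37 (0.80 to 8.72) in quiescent cells, on 35 knockout UMIs and 1 wild-type UMI, and 0.90 (0.024 to 1.78) in cycling cells. The thinned shares of quiescent cells with *Maf* were nevertheless alike, 1 of 146 wild-type (0.685%) and 4 of 505 knockout cells (0.792%). Single knockout CD8 T cells held up to 15 *Maf* UMIs, and the part of doublets with Tregs was not tested. *Cxcr5* had −0.95 (−1.90 to −0.028) in cells with 1 or 2 UMIs of the list. *Xcl1* had 4836 and 4453 UMIs, a ratio of −0.29 (−0.35 to −0.23), and among cells with none of the quiescence list 0.33 (0.26 to 0.39), of opposite sign. These intervals do not cover the spread between cells. The 10 cells with most *Xcl1* held 34.3% and 29.0% of its CD8 UMIs, with up to 280 and 243 in 1 cell. Among cells with none of the quiescence list the thinned shares with *Xcl1* were 31.0% (27.1 to 35.1%) and 34.8% (30.2 to 39.6%), which overlap.

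In Tregs *Tbc1d4* gave the clearest genotype difference of the set. It had 784 wild-type and 1091 knockout UMIs, 88.2 CPM (82.1 to 94.6) and 134 CPM (126 to 142), a ratio of 0.60 (0.47 to 0.74), and a UMI in 12.7% and 18.2% of thinned cells. The ratio was 0.59 (0.45 to 0.74) without cycling cells, 0.68 (0.49 to 0.87) in Tregs with none of the quiescence list and 0.32 (−0.14 to 0.79) in quiescent Tregs. In the 33 wild-type and 16 knockout Tregs with an *Xcl1* UMI the *Tbc1d4* ratio lay below 0, at −1.05 (−2.05 to −0.15) on 52 and 13 UMIs. After thinning only 5 and 2 of these cells held *Tbc1d4*, and the interval does not cover the spread between cells, so no genotype difference is read from it. *Maf* was higher by 0.21 (0.14 to 0.28), from 3563 and 3777 UMIs, and by 0.39 (0.31 to 0.47) among Tregs with none of the quiescence list, although its share of thinned Tregs was 47.6% and 44.6%, with intervals that overlap. *Bcl6* (323 and 371 UMIs) was higher by 0.32 (0.11 to 0.54), and among Tregs with none of the quiescence list by 0.14 (−0.19 to 0.47), within counting error. *Nrn1* was lower in knockout Tregs, at 365 and 280 UMIs and −0.26 (−0.49 to −0.029), where in CD8 T cells it was higher. The Treg ratio differed between states. It was below 0 beyond counting error in Tregs that did not cycle, at −0.43 (−0.69 to −0.17), and in quiescent Tregs, at −1.84 (−3.12 to −0.65) on 18 and 10 UMIs. It was also below 0 beyond counting error in Tregs without a *Tnfrsf9* UMI after thinning, at −0.34 (−0.63 to −0.051), and in those without an *Xcl1* UMI after thinning, at −0.25 (−0.49 to −0.015). It was −0.15 (−0.43 to 0.14) with none of the quiescence list, 0.011 (−0.41 to 0.44) with 1 or 2 UMIs of it, 0.53 (−0.011 to 1.09) in cycling Tregs, 0.29 (−0.62 to 1.17) in Tregs with an *Xcl1* UMI and, on the other side of 0, 0.41 (0.013 to 0.81) in Tregs with a *Tnfrsf9* UMI. Over the whole class *Cxcr5*, at 0.12 (−0.12 to 0.37), *Cd83*, at −0.13 (−0.31 to 0.055), and *Sh2d1a* did not differ beyond counting error. Within states *Cxcr5* had 0.30 (0.023 to 0.58) without cycling cells, *Cd83* had −0.44 (−0.84 to −0.051) in Tregs with a *Tnfrsf9* UMI and *Sh2d1a* had −0.11 (−0.21 to −0.0042) in those without. The same genes also took the opposite sign in some states, within counting error. In cycling Tregs *Cxcr5* had −0.49 (−1.04 to 0.059), *Cd83* 0.47 (−0.094 to 1.04) and *Sh2d1a* 0.16 (−0.063 to 0.39). For *Bcl6*, *Maf*, *Slamf6* and *Cd200*, the Treg ratios that took the opposite sign in a state were within counting error there. These were, in Tregs with an *Xcl1* UMI, *Bcl6* at −0.73 (−2.53 to 0.79), *Maf* at −0.047 (−0.73 to 0.61), *Slamf6* at −0.34 (−1.502 to 0.72) and *Cd200* at 0.68 (−0.035 to 1.38), in quiescent Tregs *Maf* at −0.22 (−0.58 to 0.14), and in Tregs without a *Tnfrsf9* UMI *Cd200* at 0.031 (−0.13 to 0.19). *Cd83* is also a dendritic cell gene, and without cells that held 2 or more myeloid or 2 or more B cell marker genes its Treg ratio was −0.21.

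Other genes of the pathways were counted from lists that were likewise chosen with earlier results known. Of 20 further follicular helper genes, 18 reached 20 UMIs in CD8 T cells, where 3 were at least 1.5-fold higher and 3 lower in the knockout, beside 13.7% and 8.20% of all genes, with a median of 0.22. *Il21*, the follicular helper cytokine (0.93, on 43 and 20 UMIs in the knockout and wild type), and *Il6st*, which encodes the shared interleukin-6 receptor chain (0.86), were highest, and *Pdcd1*, the PD-1 gene (−0.93), and *Tox2* (−0.86) lowest. In Tregs none of 18 passed 1.5-fold, beside 6.93% of all genes higher and 3.62% lower. The ends were *Cd40lg* (0.57), *Pou2af1* (0.49), *Batf* (−0.45) and *Cd82* (−0.55). Set against the members cell by cell, the same list was higher in CD8 T cells that held 2 or more of them, by a median of 0.67 (wild type) and 1.07 (knockout). At least 1.5-fold higher were 8 and 10 of 16 genes (13.5% and 15.2% of all genes), and 1 and 0 were as much lower (9.66% and 11.6%). *Izumo1r* led in both (1.59 and 2.30). In Tregs the medians were 0.31 and 0.40, led by *Tox2* (1.55) and *Tigit* (1.66). There 3 and 8 of 17 genes were at least 1.5-fold higher (13.6% and 15.7% of all genes). As much lower were 1 and 0, for which no share of all genes was computed, so these counts are not read.

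The 12 genes that oppose the follicular program, among them *Prdm1*, the gene of the repressor Blimp-1, had a median genotype ratio of 0.32 in CD8 T cells, with 3 at least 1.5-fold higher and none lower (13.7% and 8.20% of all genes). The highest were the quiescence genes *Ccr7* (1.33) and *S1pr1* (1.18), and the lowest *Prdm1* (−0.30) and *Id2* (−0.16). In Tregs *S1pr1* (0.84) and *Klf2* (0.67) were highest, and *Id2* (−0.51) and *Ccr7* (−0.33) lowest. In CD8 T cells with 2 or more members, 1 of 11 of these genes was at least 1.5-fold higher and 2 lower in wild-type cells, while among knockout cells 1 of 10 was higher and 3 lower, with medians of −0.051 and −0.26. Of all genes, 13.5% and 15.2% were as much higher and 9.66% and 11.6% as much lower. In the wild type *Stat5a* (1.32) and *Id2* (0.21) were highest and *Ccr7* (−2.24) and *S1pr1* (−1.15) lowest, and in the knockout *Tbx21* (0.78) and *Stat5a* (0.35) were highest and *Klf2* (−1.52) and *S1pr1* (−1.37) lowest. Of 23 genes induced by the T cell receptor 22 reached 20 UMIs in CD8 T cells, and 5 of these were at least 1.5-fold higher and 1 lower in the knockout, beside 13.7% and 8.20% of all genes, led by *Rel* (1.45) and *Cd69* (1.01), with *Tnfrsf4* (−0.62) and *Egr2* (−0.51) at the other end. In Tregs (6.93% and 3.62% of all genes) 1 was higher, *Rel* (0.61), and 1 lower, the chemokine gene *Ccl3* (−1.12), with *Cd69* (0.47) and *Nfkb2* (−0.58) next.

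Among CD8 T cells, more of the receptor-induced genes were higher than lower in *Xcl1*-positive cells and in cells with 2 or more members. In *Xcl1*-positive CD8 T cells 10 of 21 wild-type and 15 of 22 knockout genes were at least 1.5-fold higher (12.6% and 17.3% of all genes) and 1 and 0 at least 1.5-fold lower (12.8% and 16.2% of all genes), with medians of 0.41 and 1.08. *Egr2*, a transcription factor induced by antigen receptor signals, was highest in both, at 1.87 and 3.04. Where CD8 T cells held 2 or more members, 8 of 20 wild-type and 13 of 21 knockout genes were at least 1.5-fold higher (13.5% and 15.2% of all genes) and 1 and 2 lower (9.66% and 11.6%), with medians of 0.24 and 0.72. In the wild type *Egr2* (1.67) and *Tnfrsf4* (1.57) were highest and *Myc* (−1.07) and *Ccl3* (−0.39) lowest, and in the knockout *Tnfrsf4* (3.11) and *Tnfsf11* (2.33) were highest and the chemokine genes *Ccl3* (−1.06) and *Ccl4* (−0.63) lowest. In a list of SLAM family genes, *Fyn*, whose kinase SAP binds, and the CD200 receptor genes, *Slamf1* (0.59) and *Cd200r1* were the 2 of 8 genes at least 1.5-fold higher in knockout CD8 T cells (13.7% of all genes) and *Fyn* and *Cd48* (−0.14) the lowest, and *Fyn* was higher in CD8 T cells with 2 or more members by 0.69 and 1.14. *Ly9* (−0.023), *Cd84* (−0.041), *Slamf7* (0.15) and *Cd244* (0.56) made up the rest. In Tregs the list lay between −0.63 (*Cd244*, 27 and 16 UMIs) and 0.24 (*Cd200r1*), with *Slamf7* at −0.26 and *Ly9* at 0.20.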

How the data were processed

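Islet CD8 T cells and Tregs were profiled as 1 droplet library per genotype. The authors deposited counts, the number of UMIs per gene and barcode, written by Cell Ranger 7.0.0 on mm10 per the labels, and not normalized. The sources used here do not state whether intronic reads count.

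Barcodes outside 200 to 5000 genes or over 20% mitochondrial UMIs were dropped, which left 2714 of 2804 wild-type and 2915 of 2991 knockout cells, with 17750269 and 17808848 UMIs and medians of 5011 and 4903 per cell. Doublets were not called. Class sums in each library gave CPM, with exact Poisson intervals, log2 ratios with exact conditional intervals, and shares with exact binomial (Clopper-Pearson) intervals, all at 95% and for counting error only. For co-expression each cell with at least 2000 UMIs was thinned to 2000 without replacement (seed 1), and 17, 16, 76 and 55 shallower cells were left out of wild-type and knockout CD8 T cells and wild-type and knockout Tregs. Cycling cells had 3 or more UMIs of *Mki67*, *Top2a*, *Birc5*, *Cdk1* and *Ube2c*. The expected number of cells with a pair of genes is the product of their shares. Background shares cover genes with at least 20 UMIs in the 2 groups together, at 1.5-fold. With 1 library per genotype nothing was tested. The members and lists were chosen with earlier results of these data known. Named from each list were the 2 highest and 2 lowest genes and partners of members. The steps were tested on simulated data. Alternatives were TMM factors (edgeR 4.0.16, R 4.3.3), other totals, weights, cell filters and gates, and other thinning. Python 3.11.15, numpy 2.4.6, scipy 1.17.1, pandas 2.3.3 and matplotlib 3.10.9 were used. Gene positions are from GENCODE vM21 (GRCm38), matched by gene identifier. A gene of the quiescence list, a gene ranked among those most like the set and a sort marker are not reported here.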

Additional observations from a re-analysis of the deposited data

Results flagged for a closer look

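*Nrn1* stood out because both intervals excluded 0 on opposite sides. Its knockout over wild-type log2 ratio was 0.69 (0.44 to 0.94) in CD8 T cells, from 204 and 371 UMIs, and −0.26 (−0.49 to −0.029) in Tregs, from 365 and 280 UMIs. This difference of the classes was not tested, with 1 library per genotype. Within states not all intervals excluded 0. In CD8 T cells the ratio was 1.30 (1.01 to 1.59) with none and 0.88 (0.29 to 1.49) with 1 or 2 UMIs of the quiescence list, 1.79 (1.27 to 2.33) in cycling cells and 1.13 (0.83 to 1.44) in *Xcl1*-positive cells. It was 0.28 (−0.0052 to 0.57) in CD8 T cells that did not cycle, 0.15 (−0.30 to 0.61) in those without an *Xcl1* UMI after thinning and −1.56 (−3.22 to 0.13) in quiescent ones. In Tregs it was below 0 beyond counting error in cells that did not cycle, at −0.43 (−0.69 to −0.17), and in quiescent cells, at −1.84 (−3.12 to −0.65). It was −0.15 (−0.43 to 0.14) and 0.011 (−0.41 to 0.44) in Tregs with none and with 1 or 2 UMIs of the quiescence list, and 0.41 (0.013 to 0.81) in Tregs with a *Tnfrsf9* UMI. Few cells held many of the transcripts: the 10 cells with most *Nrn1* had 38.7% and 41.0% of its UMIs in wild-type and knockout CD8 T cells and 26.6% and 33.9% in Tregs.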

How the results depend on the processing

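Of 100 medians recomputed under another choice, 89 stayed within the counting interval of the median member and 11 moved. The CD8 genotype median was 0.72 in cycling cells only. In wild-type CD8 T cells the *Xcl1* median was 1.08 and 0.98 with cells thinned to 1000 and 3000 UMIs and 1.97 under the stricter gate, and in wild-type Tregs it was −0.55 at 1000 UMIs and −0.66 with 2 *Xcl1* UMIs required. The median of the other-members comparison in wild-type CD8 T cells was 0.43 with 1 other member enough. The Treg-over-CD8 median was 0.85 (wild type) and 1.27 (knockout) under the stricter gate, and 0.80 and 1.13 in the knockout with TMM factors and with equal weight per cell. The cycling-only and *Ikzf2* or *Il2ra* splits, the cell with most UMIs left out and the stricter gate for co-expression were chosen after seeing the data.

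Under these choices, member ratios that were beyond counting error changed sign as follows. Those within counting error, some of which also changed sign, are not listed, and sign changes within states (quiescence list, *Xcl1* or *Tnfrsf9* UMI) stand beside the genotype ratios above. In CD8 T cells the genotype ratio of *Tbc1d4* was −0.19 and that of *Cd83* −0.62 under the stricter gate, and −0.057 and −0.30 in cells with no *Ikzf2* or *Il2ra* UMI. *Bcl6* was −0.028 without cycling cells. *Cd200* was 0.28 in cycling cells and 0.024 in cells with *Ikzf2* or *Il2ra*, and *Nrn1* in cycling Tregs 0.53. Against *Xcl1*, wild-type *Cxcr5* in CD8 T cells was −0.14 at 1000 UMIs and wild-type *Bcl6* in Tregs −0.24 with a second seed. Against the other members, *Bcl6* in CD8 T cells was −0.12 (wild type) and −0.17 (knockout) without thinning and −0.14 in the wild type with 1 other member enough, and knockout *Slamf6* in Tregs −0.072 at 1000 UMIs. The wild-type Treg-over-CD8 ratio of *Sh2d1a* was 0.12 with equal weight per cell, 0.16 under the stricter gate, 0.24 without cycling cells and 0.024 with 500 to 4000 genes per cell and a 10% mitochondrial limit, that of *Cd200* −0.0024 without cycling cells, and in the knockout that of *Slamf6* −0.042 with TMM factors and that of *Nrn1* 0.51 under the stricter gate. The cause of these changes was not tested. No paired analysis was possible because each genotype has 1 library and the labels give no replicate numbers. With 51 and 84 *Cd83* UMIs and 76 and 78 *Cxcr5* UMIs in CD8 T cells, depth limits what can be said of these 2 genes.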

Other observations

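In the 271 wild-type and 271 knockout cells that met neither class rule, *Maf* was at 290.3 and 315 CPM, *Cd200* at 136 and 108 CPM, and *Sh2d1a* at 217 and 202 CPM. *Nrn1* was at 67.7 and 41.2 CPM there, and *Tbc1d4* at 92.1 and 136 CPM.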
